A study of Homo sapiens with 12 samples.

Results

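ZNF783 and the zinc finger genes that surround it on chromosome 7 were followed by RNA-seq in 12 libraries made from 22Rv1 cells, an established human line of prostate carcinoma grown first as a xenograft. The 10 genes were taken by name (ZNF783, ZNF777, ZNF746, ZNF767P, ZNF282, ZNF212, ZNF398, ZNF425, ZNF786 and ZNF862). The choice was made with earlier results of these data known. All 10 were found in both count tables, among 61860 genes in each, and all 10 passed the expression filter in each comparison. The series concerns phosphorylated RB, the transcription factor ETS1 and CDK4/6 inhibitors. It holds 4 groups of 3 libraries: cells given siRNA against ETS1, the controls of that experiment, cells given siRNA against ZNF783, and the separate controls of that second experiment. All groups are the same cell line in the same medium with serum, and the labels name no drug. What the control cells received, the siRNA sequences and the time of harvest are not given in the sources used here. Replicates are numbered in the labels with no word on separate cultures, so the p-values reflect the spread among these libraries, which may be technical.

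Most zinc finger proteins of this kind bind DNA through arrays of C2H2 fingers, and many carry a KRAB domain, a short module that in its classic form recruits the corepressor TRIM28. TRIM28 in turn brings the histone methyltransferase SETDB1 and HP1 proteins, which silence the bound chromatin. Such genes often lie side by side in clusters that arose by duplication, and in some members of the chromosome 7 group the KRAB domain is a variant of the classic one. ZNF746 has been described as a repressor of PPARGC1A. ZNF282 is also known as HUB1 and ZNF398 as ZER6, and ZNF777 has been described as a repressor of NIBAN1. ZNF767P is annotated as a transcribed pseudogene.

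In the GENCODE release 29 annotation of GRCh38 the 10 genes span 798 kb of chromosome 7, from 149069643 to 149867479, with 5 on each strand. Their order is ZNF786, ZNF425, ZNF398, ZNF282, ZNF212, ZNF783, ZNF777, ZNF746, ZNF767P and ZNF862. ZNF783 (ENSG00000204946) lies on the plus strand at 149262171 to 149297302. The start of ZNF212 lies 22.5 kb before the ZNF783 start, and that of ZNF777, on the opposite strand, 199.0 kb beyond it.

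Promoter windows of 300 bases (250 before and 50 after the start, RefSeq, GRCh38.p14) were matched for 7 of the 10 genes, in 8 windows. ZNF777, ZNF746 and ZNF767P had no entry. The ZNF783 window was the richest of the 8 in CG dinucleotides, with 42, against 20 to 35 in the other windows and a median of 14 over 35116 promoters. The stretch before the ZNF783 start, chr7:149261946-149262170 on the plus strand, is shown 5′ to 3′ because this is the targeted gene, with its 34 CG dinucleotides in capitals.
ZNF783: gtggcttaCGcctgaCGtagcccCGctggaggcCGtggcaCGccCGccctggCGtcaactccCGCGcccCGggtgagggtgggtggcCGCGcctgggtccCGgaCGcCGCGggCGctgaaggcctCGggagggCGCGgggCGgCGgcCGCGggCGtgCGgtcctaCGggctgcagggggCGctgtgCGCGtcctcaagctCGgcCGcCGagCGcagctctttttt
The ETS core GGAA, searched on both strands, was found in 7 of the 8 windows and in 95.5% of all promoters. The window without it was that of ZNF783. The longer word CCGGAAGT, also searched on both strands and containing the core, was in 0 of the 8 windows and in 4.14% of all promoters. These are matches of letters in a fixed window and say nothing of binding.

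ZNF425 and ZNF398 are a divergent pair: their RefSeq starts lie 83 bases apart on opposite strands, and their windows share 183 bases. The most similar pair of windows among 28 was that of ZNF425 and ZNF786, with 186 identical bases, 86.5% of the 215 bases aligned. By the same measure the next pair, ZNF786 and ZNF783, had 66.5%, and the median pair had 161 identical bases. Part of the alignment is shown 5′ to 3′ on the minus strand, because these 2 genes had the lowest fold changes after ZNF783 with ZNF783 siRNA. There ZNF425 was not called (adjusted p = 0.0551, edgeR), and the call of ZNF786 was lost in 9 of 16 alternatives. ZNF398, whose window holds the ZNF425 stretch shown, had a log2 fold change of 0.09. A link between these windows and the fold changes was not tested. Capitals mark the 47 of 61 bases that are identical. The ZNF425 stretch is chr7:149126347-149126407, between its start and that of ZNF398, and the ZNF786 stretch is chr7:149090818-149090878, ending 99 bases before the RefSeq start.
ZNF425: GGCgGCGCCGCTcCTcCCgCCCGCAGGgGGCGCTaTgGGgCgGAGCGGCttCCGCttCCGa
ZNF786: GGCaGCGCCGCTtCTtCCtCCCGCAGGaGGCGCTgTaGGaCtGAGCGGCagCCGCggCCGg

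The deposited values are read counts, with 13518177 to 48996691 counts per library. ETS1 itself, the other targeted gene, had 0 to 3 counts in each of the 12 libraries, so its loss could not be measured. Prostate luminal markers summed to 3150 to 3550 CPM (counts scaled to a library of 1e+06) and 0 of 9 stayed under 1 CPM, whereas leukocyte markers summed to 0.812 to 1.96 CPM. The luminal sum was 3150 to 3170 CPM with ZNF783 siRNA against 3380 to 3420 CPM in the controls, and 3410 to 3420 CPM with ETS1 siRNA against 3520 to 3550 CPM. With ZNF783 siRNA 5 of the 9 luminal markers were called lower by edgeR, beside 13.8% of all genes. With ETS1 siRNA 0 of 9 were called, beside 0.0461% of all genes. Without ETS1 siRNA replicate 1, 5 of 9 were called lower and 1 higher, beside 13.0% of all genes called lower. Basal and neuroendocrine markers, nearly all of it SYP, summed to 54.2 to 59.3 CPM with ZNF783 siRNA against 67.1 to 74.7 CPM, and to 40.3 to 55.4 CPM with ETS1 siRNA against 67.9 to 73 CPM. Fibroblast and endothelial markers, most of it COL1A1, summed to 23.6 to 24.9 CPM with ZNF783 siRNA against 27.4 to 29.6 CPM. With ETS1 siRNA they summed to 14.5 to 16.1 CPM against 15.4 to 17.3 CPM. Of these 5 markers, 4 stayed under 1 CPM in each ZNF783 group and 3 in each ETS1 group. The part of these shifts in the members' values was not tested. One library stood apart. ETS1 siRNA replicate 1 differed from replicates 2 and 3 by a chi-square per degree of freedom of 35.6 and 34.3, while the other pairs within a group gave 1.32 to 2.7. Several results on the members are given with and without it, and other values with ETS1 siRNA include it unless stated.

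Each member was detected in every library, with 142 to 3630 counts. Levels between genes were compared as CPM per kb of exon, after TMM scaling (trimmed mean of M values). ZNF282 was the most abundant member per kb, at 19.5 ± 0.99 in the ETS1 controls (SD, n = 3) and 24.8 ± 0.459 in the ZNF783 controls (n = 3). ZNF398, at 12.5 ± 0.262, and ZNF777, at 10.1 ± 0.498, followed in the ETS1 controls. In the ZNF783 controls that order was turned, with ZNF777 at 13.7 ± 0.928 and ZNF398 at 11.6 ± 0.191 per kb. ZNF862 came next in both sets of controls, at 8.9 ± 0.0408 and 9.44 ± 0.361 per kb. ZNF212, ZNF767P, ZNF786 and ZNF746 lay between 6.4 and 7.13 per kb in the ETS1 controls and between 7.13 and 8.79 in the ZNF783 controls, and neighbours in the order of these 4 overlapped. ZNF783 was the ninth of the 10 in both, at 3.22 ± 0.101 and 5.18 ± 0.135 per kb, and ZNF425 the lowest, at 2.2 ± 0.121 and 3.35 ± 0.294. The ranges of ZNF783 and ZNF425 did not overlap each other in either set of controls. The lengths include exon bases shared with other genes, 29.5% for ZNF783 and 26.3% for ZNF862. Reads there may be lost, so the levels and places of ZNF783 and ZNF862 in this order may be too low.

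**Figure D1:**
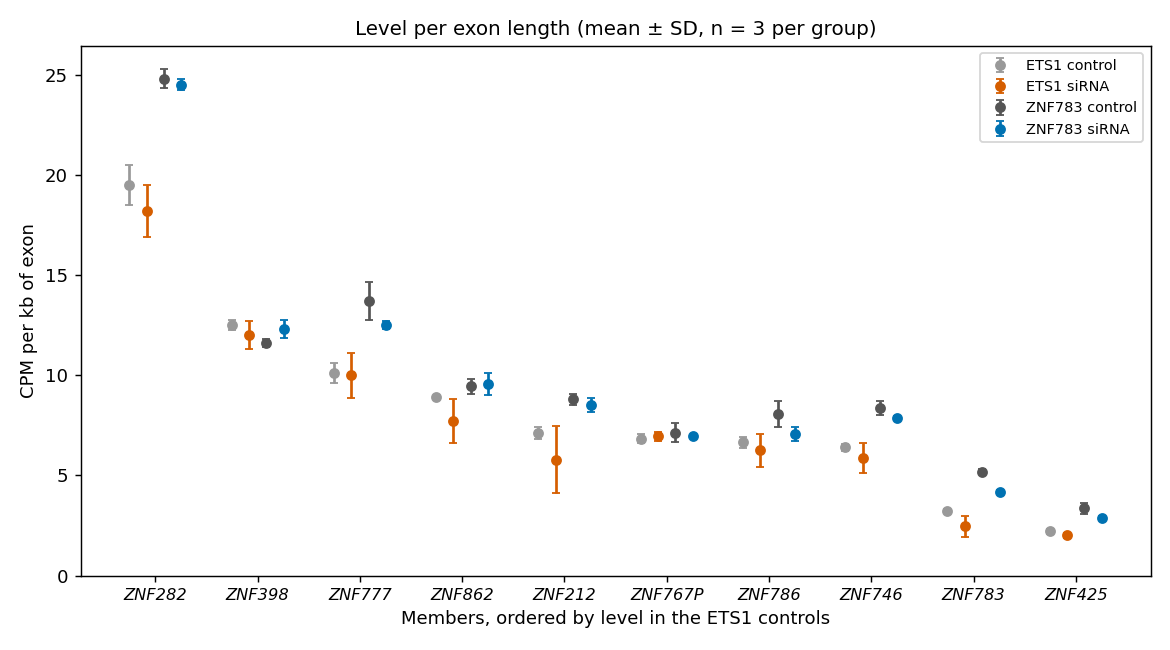
Level of each member per exon length (CPM per kb of exon, vertical axis) in the 4 groups, as mean ± SD over 3 libraries, with members ordered by their level in the ETS1 controls. ZNF282 lies highest in every group (18.2 to 24.8) and ZNF783 and ZNF425 lowest (2.0 to 5.18). Exon length includes bases shared with other genes.

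The control cells of the 2 experiments differed in these levels. ZNF783 was 1.61 times as high in the ZNF783 controls as in the ETS1 controls, ZNF425 1.53 times, ZNF777 1.35 times and ZNF746 1.31 times. ZNF398 had a ratio of 0.928, ZNF767P of 1.04 and ZNF862 of 1.06. Over all genes tested in both experiments the ratio had a median of 1.05 and ran from 0.705 at the 5th to 1.88 at the 95th percentile, so each member lay inside that range. The experiments were counted in separate tables, so the experiment and any batch cannot be told apart. The summed level of the 10 members was 350 CPM in ETS1 siRNA replicate 1, 392 to 422 CPM in the other 5 libraries of that experiment, and 466 to 502 CPM in the 6 libraries of the ZNF783 experiment. ZNF783 made up 3.57% to 7.36% of that sum.

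ZNF783 was the first member examined, since it was the target of 1 of the siRNAs. With ZNF783 siRNA it measured 28.7, 27.4 and 28.0 CPM, and in the matching controls 33.8, 34.9 and 35.7 CPM. The groups did not overlap, but the libraries with siRNA kept most of the transcript: ZNF783 fell to 80.5% of its control level, a log2 fold change of -0.31 (SE 0.055, 95% interval -0.42 to -0.20, adjusted p = 2.46e-05, edgeR's quasi-likelihood test with Benjamini-Hochberg adjustment over all genes). Of all genes tested, 7.6% had a lower fold change than ZNF783, the target. Once the counts were corrected for GC content and gene length, it was -0.23 (adjusted p = 0.00131, edgeR). The call was lost in 1 of 16 alternatives, the fit of all 12 libraries together (-0.32, adjusted p = 0.145). RNA level in bulk samples cannot tell fewer cells with a transcript from less transcript per cell.

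The counting of ZNF783 has a limit of its own. A transcribed pseudogene on the same strand, ENSG00000244560, shares 1985 exon bases with it, 29.5% of the ZNF783 exon length, and reads in shared bases may be lost to both genes. Its level was 3.94, 4.8 and 5.1 CPM with ZNF783 siRNA, against 3.21, 3.27 and 4.38 CPM in its controls. The pseudogene's log2 fold change was 0.31 (adjusted p = 0.129, edgeR), in the opposite direction to ZNF783. Summed over both genes, the libraries with ZNF783 siRNA held 32.6, 32.2 and 33.1 CPM and the controls 37.1, 38.2 and 40.0 CPM. The sum had to separate the groups, since the pseudogene's level was too low to close the gap in ZNF783. Reads lost in shared bases are in neither count, so the sum adds no test of the overlap. Sequence shared with another gene was otherwise large in ZNF862 alone, where 2215 exon bases, 26.3% of its length, overlap an antisense gene and the counting did not use strand. In words of 50 bases the other 8 members shared at most 3.5% with any other gene's transcripts.

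With ETS1 siRNA, ZNF783 measured 12.5, 18.7 and 18.5 CPM, against 21, 21.6 and 22.3 CPM in the controls. All 3 libraries lay below the lowest control, and replicate 1 lay well below the other 2. The log2 fold change was -0.38 (SE 0.15, 95% interval -0.73 to -0.02) and did not pass the test (adjusted p = 0.258, edgeR). With ETS1 siRNA replicate 1 left out, the fold change was smaller and passed (-0.23, SE 0.056, 95% interval -0.34 to -0.12, adjusted p = 0.00146, edgeR, 2 libraries against 3). With the GC and length correction and without that replicate, an alternative chosen after the data were seen, it was -0.14 and did not pass (adjusted p = 0.0635, edgeR). The overlapping pseudogene had a log2 fold change of -0.54 in the same comparison (adjusted p = 0.221) and -0.39 without replicate 1 (adjusted p = 0.0271, edgeR).

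ZNF783 thus lay below its own controls in 3 of 3 libraries with each siRNA. The difference between the effects, ETS1 siRNA minus ZNF783 siRNA, was -0.05 (95% interval -0.39 to 0.30, adjusted p = 0.925, edgeR), an interval wide enough to hold differences as large as either effect. The difference was 0.08 without ETS1 siRNA replicate 1 (adjusted p = 0.554, edgeR).

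**Figure D2:**
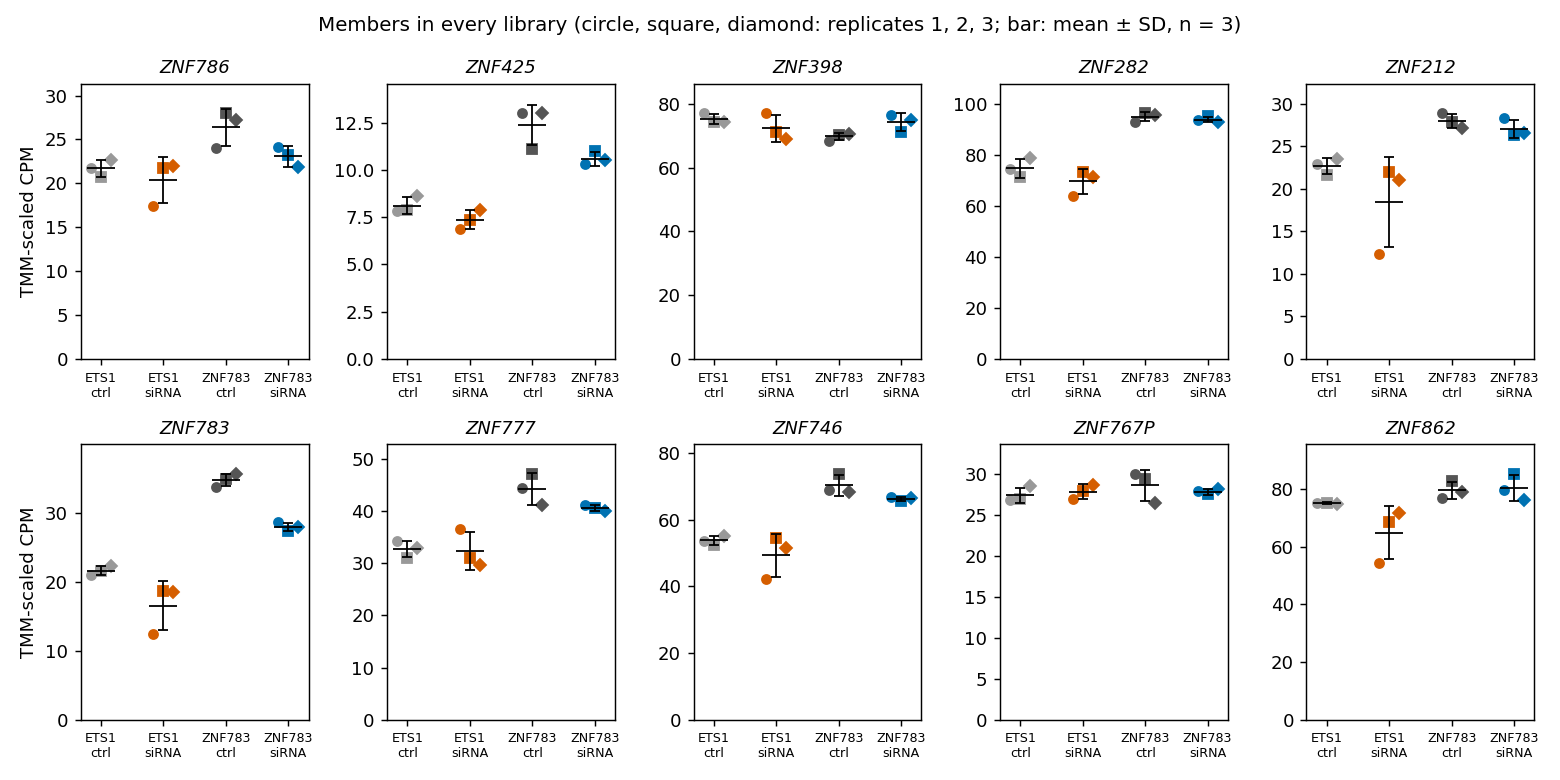
TMM-scaled CPM of each member (1 panel per gene, in chromosome order, each axis from 0) in every library. Circles, squares and diamonds are replicates 1, 2 and 3 and bars are the mean ± SD of 3. ZNF783 lies lower with each siRNA than in that siRNA's own controls, and ETS1 siRNA replicate 1 (circle) is the lowest of its group for 8 of the 10 members.

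Among the other members, 1 was called with ZNF783 siRNA. The 2 of 10 members called, ZNF783 and ZNF786, were both lower, beside 25.1% of all 17630 genes tested (13.8% lower, 2435 genes, and 1993 genes higher; 2200 lower and 2298 higher with scaling by library size alone). ZNF786 measured 24.2, 23.2 and 21.9 CPM with the siRNA and 24.0, 28.0 and 27.2 CPM in the controls. Its groups overlapped, control replicate 1 lying below siRNA replicate 1, and it was lower by a log2 fold change of -0.19 (SE 0.065, adjusted p = 0.0283, edgeR). This call was lost in 9 of 16 alternatives. They included the GC and length correction (-0.11, adjusted p = 0.234) and leaving out ZNF783 siRNA replicate 2 (adjusted p = 0.0636) or 3 (0.124), or control replicate 2 (0.157) or 3 (0.112).

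ZNF425, which shares the start region with ZNF398, measured 10.3, 11 and 10.5 CPM with ZNF783 siRNA and 13, 11.1 and 13 CPM in the controls. The groups did not overlap, by a narrow margin, and the log2 fold change of -0.23 did not pass the test (SE 0.09, 95% interval -0.41 to -0.05, adjusted p = 0.0551, edgeR). Without control replicate 2 it passed (-0.30, adjusted p = 0.0224), as it did in all 6 libraries under limma-voom with quality weights (-0.25, adjusted p = 0.0341). ZNF398 went the other way, with 76.6, 71.2 and 75.0 CPM against 68.4, 70.4 and 70.5 CPM in the controls. Its groups did not overlap either, and its log2 fold change of 0.09 (SE 0.04, adjusted p = 0.0912, edgeR) was not called. Leaving out ZNF783 siRNA replicate 2 gave a call (0.12, adjusted p = 0.0388).

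Read as a ratio within each library, ZNF425 had 13.4, 15.4 and 14 counts per 100 counts of ZNF398 with ZNF783 siRNA, against 18.9, 15.8 and 18.5 in its controls. This ratio had to separate the groups, since ZNF425 was lower and ZNF398 higher without overlap, and it adds no test to the values above. With ETS1 siRNA the same ratio was 8.94, 10.3 and 11.4, against 10.1, 10.6 and 11.6 in the controls, and the groups overlapped.

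ZNF746 measured 66.8, 65.5 and 66.4 CPM with ZNF783 siRNA and 68.8, 73.7 and 68.2 CPM in the controls, a narrow gap without overlap (log2 fold change -0.08, adjusted p = 0.143, edgeR). ZNF777, its neighbour, measured 41.1, 40.6 and 39.9 CPM against 44.4, 47.1 and 41.1 CPM. These groups met at 41.1 CPM, and the fold change was -0.12 (adjusted p = 0.0787). It passed without control replicate 3 (-0.17, adjusted p = 0.0182) and had the opposite sign with the GC and length correction (0.02, adjusted p = 0.841). The other 4 members, ZNF767P, ZNF282, ZNF212 and ZNF862, had log2 fold changes of -0.04 to 0.02 with adjusted p of 0.677 to 0.808, and their groups overlapped. Counted by overlap alone, 4 of the 10 members did not overlap between the groups (ZNF783, ZNF425 and ZNF746 lower, ZNF398 higher), beside 38.2% of all genes.

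With ETS1 siRNA 0 of the 10 members were called by edgeR, where 0.0461% of all 19542 genes were called (9 genes, 5 higher and 4 lower; 9 higher and 4 lower with scaling by library size alone). One member, ZNF783, had an unadjusted p under 0.05, beside 3535 of all 19542 genes. DESeq2 called 734 genes, 0 of them members, and limma-voom with quality weights called 3863, with ZNF783 as the 1 member. Leaving out any library of this comparison other than ETS1 siRNA replicate 1 brought the 9 genes to 0. ZNF783 and ZNF862 were the 2 members whose groups did not overlap, beside 35.3% of all genes. ZNF862 measured 54.5, 68.5 and 71.8 CPM with the siRNA against 75.3, 75.2 and 74.7 CPM in the controls, with replicate 1 the lowest by far (log2 fold change -0.21, adjusted p = 0.323, edgeR).

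Several members were low together in ETS1 siRNA replicate 1. Relative to the mean of the controls, on the log2(CPM + 1) scale, ZNF212 stood at -0.83 in that library and at -0.04 and -0.11 in replicates 2 and 3. ZNF746 stood at -0.35 against 0.02 and -0.06, and ZNF786 at -0.31 against 0.01 and 0.02. ZNF777 stood at 0.16 in replicate 1 and at -0.08 and -0.13 in the others, and ZNF398 at 0.04 against -0.08 and -0.12, so these 2 went the opposite way. The fold change of ZNF212 over all 3 libraries, -0.29 (adjusted p = 0.434, edgeR), was -0.09 without that replicate (adjusted p = 0.284).

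Without ETS1 siRNA replicate 1, 3 of the 10 members were called and all 3 were lower, beside 23.0% of 20237 genes (13.0% lower, 2633 genes, and 2016 genes higher). They were ZNF783, ZNF398 (-0.11, SE 0.036, adjusted p = 0.0209) and ZNF862 (-0.11, SE 0.036, adjusted p = 0.0232, edgeR). In these 5 libraries ZNF398 measured 71.1 and 68.9 CPM with the siRNA and 77.0, 74.3 and 74.3 CPM in the controls. When GC content and length were corrected for too, ZNF398 was the 1 member called (-0.09, adjusted p = 0.0248). ZNF777, at 30.9 and 29.7 CPM against 34.2, 31.0 and 32.9 CPM, did not pass (-0.12, adjusted p = 0.0745). ZNF786 had a fold change of 0.00 and ZNF746 of -0.03 in these libraries.

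**Figure D3:**
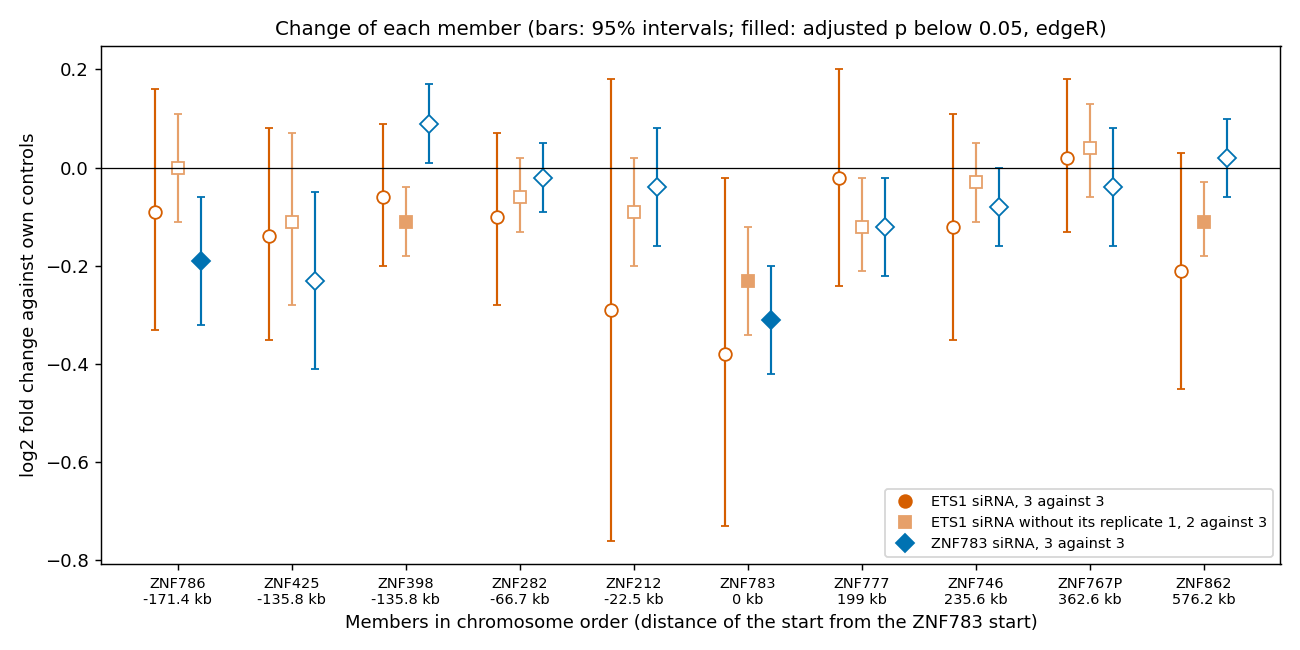
Log2 fold change of each member against its own controls, in chromosome order, with the distance of its start from the ZNF783 start in kb under each name. Circles show ETS1 siRNA, squares ETS1 siRNA without its replicate 1, and diamonds ZNF783 siRNA, with 95% intervals and filled symbols for an adjusted p below 0.05. ZNF783 is filled in 2 of the 3 comparisons, and intervals with all 3 ETS1 siRNA libraries are the widest.

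The effects of the 2 siRNAs were then compared member by member in 1 fit of all 12 libraries. For 0 of the 10 members was the difference called, beside 1.68% of 19594 genes. An unadjusted p under 0.05 was found for 0 of the 10, beside 2928 of the 19594 genes. DESeq2 also called 0 members. ZNF398 had log2 fold changes of -0.06 with ETS1 siRNA and 0.09 with ZNF783 siRNA, neither called. The difference for ZNF398 was -0.13 (95% interval -0.29 to 0.03, adjusted p = 0.438, edgeR). This difference passed once ETS1 siRNA replicate 1 was left out (-0.20, adjusted p = 0.00559). In all 12 libraries it passed under limma-voom with quality weights (-0.18, adjusted p = 0.0225), where that replicate had a weight of 0.0624 and the others 0.951 to 1.57. The widest interval was that of ZNF212, from -0.69 to 0.24.

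Described as a group, 9 of the 10 members had a fold change below 0 with ETS1 siRNA, where 48.7% of all genes did, and the median over members was -0.11 against 0.01 over all genes. With ZNF783 siRNA 8 of 10 lay below 0, where 49.6% of all genes did, with a median of -0.06 against 0.00. GC content moved with these values. Over genes, fold change and GC content had a Spearman correlation of -0.499 with ETS1 siRNA (18990 genes) and -0.377 with ZNF783 siRNA (17254 genes). The members ran from 47.9% GC in ZNF398 to 63.2% in ZNF282, beside medians of 48.1% and 48.4% over the genes tested. ZNF783 had 58.0%.

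After the GC and length correction 6 of 10 members lay below 0 with ETS1 siRNA (median -0.05) and 5 of 10 with ZNF783 siRNA (median 0.01). With ZNF783 siRNA ZNF282, the member with the highest GC content, went from -0.02 to 0.12 and was then called higher (adjusted p = 0.00444, edgeR), and ZNF777 went from -0.12 to 0.02. The uncorrected levels of ZNF282 were 93.7, 95.2 and 93.0 CPM with the siRNA and 93.1, 96.5 and 95.7 CPM in the controls, which overlapped. With ETS1 siRNA, ZNF777 went from -0.02 to 0.22 and ZNF282 from -0.10 to 0.13, neither called. ZNF783, ZNF425 and ZNF746 stayed below 0 in both comparisons.

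**Figure D4:**
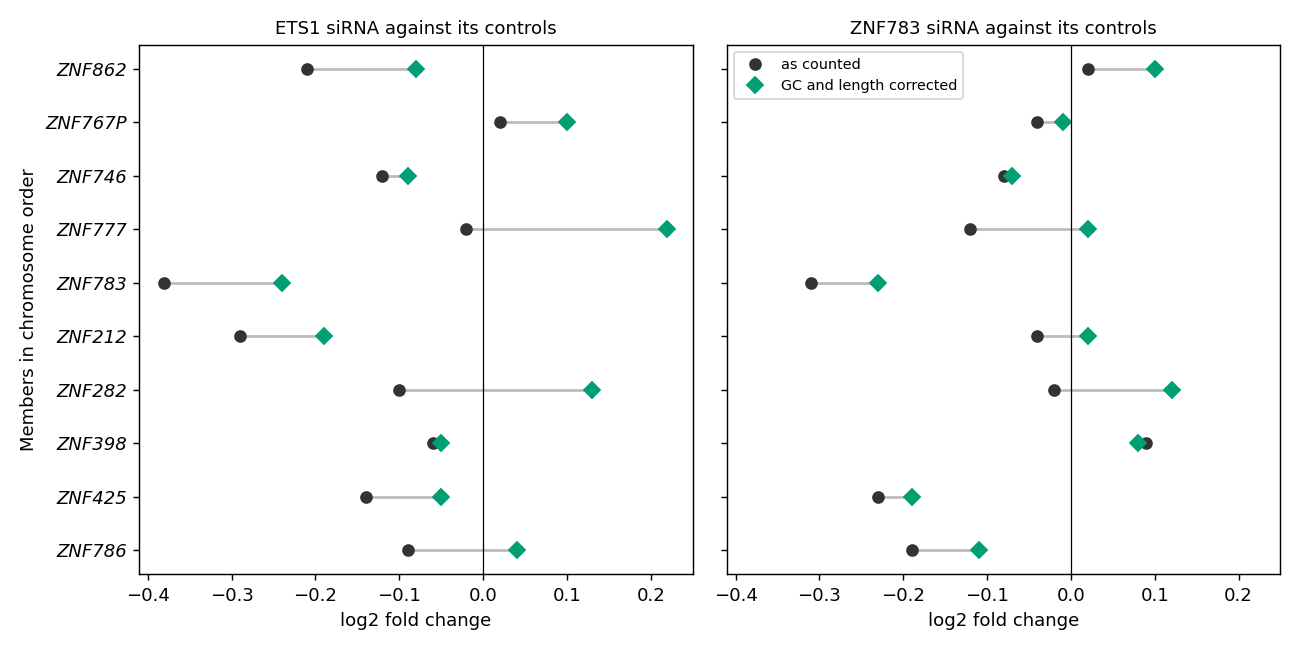
Log2 fold change of each member as counted (circles) and after correction for GC content and gene length (diamonds), for ETS1 siRNA (left) and ZNF783 siRNA (right). ZNF282 and ZNF777 cross 0 in both panels, while ZNF783 moves from -0.38 to -0.24 and from -0.31 to -0.23.

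The genes whose pattern over the 12 libraries was most like that of ZNF783 lay outside the cluster. Each library was taken as log2(CPM + 1) minus the mean of its own controls, and 10388 genes with a mean level of 10 CPM or more were compared. CHAC1, a glutathione-degrading enzyme of the stress response, had the highest Pearson r, 0.992. TOMM40, the channel of the mitochondrial outer membrane translocase, followed at 0.987, then the cell surface proteoglycan SDC1 at 0.987, GRWD1, a ribosome assembly factor, at 0.986, and ALKBH5, an RNA demethylase, at 0.985. These 5 had r from 0.961 to 0.978 without ETS1 siRNA replicate 1, and their GC content was 54.9% to 62.6%. High values were common: 19% of the genes had r above 0.8, with a median of 0.066 over all. The libraries share the low replicate and the split between siRNA and control, so these values describe a likeness and no more.

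With ZNF783 siRNA all 5 were called lower by edgeR, beside 13.8% of all genes. The log2 fold changes were -0.26 for CHAC1 (adjusted p = 6.99e-07), -0.25 for SDC1 (adjusted p = 8.01e-09), -0.23 for TOMM40 (adjusted p = 3.64e-07), -0.22 for GRWD1 (adjusted p = 1.67e-05) and -0.14 for ALKBH5 (adjusted p = 0.00261). With ETS1 siRNA they ran from -0.33 to -0.19 and 0 were called (adjusted p 0.256 to 0.285), beside 0.0461% of all genes. These genes were chosen for likeness to ZNF783, itself lower with each siRNA, so their direction followed from the choice. Their values carry no test of that likeness.

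Among the members, ZNF746 was the most like ZNF783 (r = 0.897 over 12 libraries), then ZNF212 (0.843), ZNF786 (0.803), ZNF282 (0.793) and ZNF862 (0.741). ZNF767P (0.174), ZNF777 (-0.161) and ZNF398 (-0.257) were unlike it. ZNF425, with r = 0.707, was not ranked because its mean over the 12 libraries was under 10 CPM. Part of this rested on the library that stood apart: without ETS1 siRNA replicate 1 the r of ZNF862 was 0.085, that of ZNF282 0.383 and that of ZNF777 0.674. In the same libraries ZNF786 had 0.694, ZNF746 0.688 and ZNF212 0.518. Over the 45 pairs of members the median r was 0.262, with a range of -0.566 to 0.914, and the median was 0.307 without that replicate.

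Other genes of the same region were described next, as 12 named neighbours. With ZNF783 siRNA 1 of 12 was called higher and 5 lower, beside 25.1% of all genes called and 13.8% called lower. The median log2 fold change of the 12 was -0.14, against 0.00 over all genes. PDIA4, a protein disulfide isomerase of the endoplasmic reticulum, measured 418, 417 and 429 CPM against 596, 595 and 592 CPM in the controls, a wide gap with very little spread (log2 fold change -0.50, SE 0.025, adjusted p = 7.64e-20, edgeR). ZNF467, a zinc finger gene, measured 25.3, 25.3 and 25.8 CPM against 30.4, 35.9 and 31.6 CPM (-0.36, adjusted p = 1.31e-05). LRRC61 (-0.27, adjusted p = 0.0125), KRBA1 (-0.26, adjusted p = 0.0289) and ATP6V0E2, a proton pump subunit (-0.23, adjusted p = 1.26e-06), also fell. EZH2, the histone methyltransferase of the Polycomb complex PRC2, rose by a small amount (0.08, adjusted p = 0.0377). With ETS1 siRNA 0 of 12 were called, beside 0.0461% of all genes. The smallest adjusted p was that of ATP6V0E2 (-0.25, adjusted p = 0.158), followed by those of REPIN1 (-0.26, adjusted p = 0.228), CUL1, a ubiquitin ligase scaffold (0.17, adjusted p = 0.246), and EZH2 (0.18, adjusted p = 0.253). When ETS1 siRNA replicate 1 was left out, 3 of 12 were called in each direction, beside 23.0% of all genes called. ATP6V0E2 (-0.21) and REPIN1 (-0.17) were among the lower, and CUL1 (0.11) and EZH2 (0.10) among the higher.

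The corepressor machinery through which classic KRAB domains act was measured as 14 genes. With ZNF783 siRNA 3 of 14 were called higher and 2 lower, beside 25.1% of all genes called, with a median of 0.02 against 0.00 over all genes. ATF7IP, the SETDB1 cofactor, rose (0.14, adjusted p = 0.000392), as did the HP1 gene CBX5 (0.09, adjusted p = 0.005) and PPHLN1, of the HUSH complex (0.10, adjusted p = 0.0207, edgeR). DNMT1, the maintenance DNA methyltransferase, fell from 313, 318 and 314 CPM to 269, 272 and 264 CPM (-0.23, adjusted p = 4.84e-09), and the deacetylase HDAC1 fell by 0.11 (adjusted p = 0.000935). TRIM28 itself measured 585, 587 and 575 CPM against 598, 623 and 600 CPM and did not pass (-0.06, adjusted p = 0.0731). With ETS1 siRNA 0 of 14 were called, beside 0.0461% of all genes. The smallest adjusted p were those of CBX1, an HP1 gene (-0.40, adjusted p = 0.0834), TASOR, of the HUSH complex (0.22, adjusted p = 0.175), TRIM28 (-0.33, adjusted p = 0.214) and ATF7IP (0.39, adjusted p = 0.219). When ETS1 siRNA replicate 1 was left out, 5 of 14 were called higher and 4 lower, beside 23.0% of all genes. TRIM28 was among the lower (-0.22, adjusted p = 1e-08, edgeR) and ATF7IP among the higher (0.21, adjusted p = 3.16e-07, edgeR).

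Described partners and targets of the members made a list of 11. ESR1 was too low to be tested, except in the libraries without ETS1 siRNA replicate 1 (0.04, adjusted p = 0.968, edgeR). Of the 10 tested with ZNF783 siRNA 1 was called higher and 2 lower, near the 25.1% called of all genes, with a median of -0.09. With ZNF783 siRNA E2F1, the cell cycle transcription factor, fell from between 106 and 108 CPM to 91.1, 87.9 and 87.3 CPM (-0.26, adjusted p = 1e-07), and NIBAN1, the described target of ZNF777, fell by 0.10 (adjusted p = 0.0114, edgeR). MDM2, the p53 ubiquitin ligase, rose by 0.11 (adjusted p = 0.0056). The other 7 tested were not called, among them the described target of ZNF746, PPARGC1A (-0.10, adjusted p = 0.801), at under 2 CPM in every library. With ETS1 siRNA 0 of 10 were called, beside 0.0461% of all genes. The smallest adjusted p were those of CDKN1A, a CDK inhibitor (-0.48, adjusted p = 0.105), NIBAN1 (0.30, adjusted p = 0.157), MDM2 (0.21, adjusted p = 0.305) and TFAM (0.11, adjusted p = 0.321). In the 5 libraries without ETS1 siRNA replicate 1, 3 of 11 were called higher and 1 lower, beside 23.0% of all genes. The higher were NIBAN1 (0.22), E2F1 (0.14) and MDM2 (0.08), and the lower was CDKN1A (-0.39).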

How the data were processed

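Raw counts per gene were deposited by the authors in 1 table for each siRNA experiment, not normalized. Exon reads of paired-end alignments were summed by gene identifier with featureCounts 2.0.1, per the file headers, using a GRCh38 annotation of release 107, with no strand option and none for reads on overlapping genes. The kit was directional, per the labels' protocols. The build hg38 comes from the submitters' processing notes. No aligner version is named in the labels or headers. Of 61860 genes, 61757 (99.8%) were matched to a symbol.

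Libraries were grouped by their labels. Each siRNA group and its controls were fitted in R 4.3.3 with edgeR 4.0.16 (default expression filter, TMM scaling, robust quasi-likelihood F test, group as the only term), and the difference between the effects in 1 fit of all 12 libraries. P-values were adjusted by Benjamini-Hochberg over all genes tested, with a call at an adjusted p below 0.05. Standard errors were derived from the F statistic. The 10 members and 3 further gene lists were chosen with earlier results of these data known. All members are named. From each list the genes called are named or, where none was, up to 4 with the smallest p, besides TRIM28 and PPARGC1A, added for their roles, and the 5 genes most like ZNF783 by Pearson r. Exon length and GC content came from GENCODE release 29 and covered at least 97% of the genes tested. Alternatives were DESeq2 1.42.0 (size factors, Wald test), limma 3.58.1 voom with quality weights, scaling by library size, 2 other filters, a spline correction for GC content and length (5 degrees of freedom), a replicate block, a fit of all 12 libraries and leaving out each library. The scripts' tests were checked on simulated data. Protein sequences were not used here, and 1 listed gene is not reported here by name.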

Additional observations from a re-analysis of the deposited data

Results flagged for a closer look

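For 0 of the 10 members did the effects of the 2 siRNAs differ by the test of the difference, but for 5 genes of the accompanying lists they did, 1 of 12 neighbours, 2 of 14 corepressor genes and 2 of 10 tested partners and targets, beside 1.68% of all 19594 genes (ETS1 siRNA minus ZNF783 siRNA, log2, edgeR on all 12 libraries). PDIA4, which lies on the ZNF786 side of the cluster, had a difference of 0.58 (adjusted p = 0.00262). It was lower in 3 of 3 libraries with ZNF783 siRNA, and measured 533, 622 and 641 CPM with ETS1 siRNA against 577, 565 and 571 CPM in the controls. DNMT1 had a difference of 0.37 (adjusted p = 0.00393), with 355, 334 and 343 CPM with ETS1 siRNA against 317, 311 and 318 CPM in those controls. NIBAN1 had a difference of 0.42 (adjusted p = 0.0205). CBX1 (-0.34, adjusted p = 0.0193) and CDKN1A (-0.44, adjusted p = 0.0335) had differences in the other direction. CBX1 measured 163, 179 and 183 CPM with ETS1 siRNA against 229, 232 and 234 CPM, and CDKN1A 172, 216 and 211 CPM against 279, 270 and 286 CPM. These 5 differences include ETS1 siRNA replicate 1. Without it the fold changes with ETS1 siRNA were 0.14 (PDIA4), 0.09 (DNMT1), 0.22 (NIBAN1), -0.36 (CBX1) and -0.39 (CDKN1A). With 3 libraries per group, single libraries were not tested as outliers.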

How the results depend on the processing

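Of 570 values of members under alternatives, 512 kept their direction and their side of the threshold, 10 lost a call, 16 gained one and 32 changed sign. ETS1 siRNA replicate 1 limits every statement on ETS1 siRNA.

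With ETS1 siRNA the 9 genes called became 253 without an expression filter, 734 with DESeq2, 3863 with limma-voom (1 member called), 30 with the GC and length correction, 1875 in the fit of all 12 libraries and 0 to 4649 when 1 library was left out (0 to 3 members). Without ETS1 siRNA replicate 1, 3875 were called with the GC and length correction (1 member) and 4890 with limma-voom (3 members), both chosen after seeing the data. With ZNF783 siRNA the 4428 genes became 2718 with DESeq2 (1 member) and 824 in the fit of all 12 libraries (0 members). In that comparison 1 member was called without a filter and 3 with limma-voom (ZNF783, ZNF425 and ZNF786). Leaving out 1 library gave 1 to 2 members. For the difference between the effects the 330 genes became 978 without a filter, 663 with DESeq2, 2503 with limma-voom (1 member), 685 with the GC and length correction and 140 to 2735 when 1 library was left out (0 to 1 members). Without ETS1 siRNA replicate 1, 3148 were called with the GC and length correction and 2869 with limma-voom (1 member each).

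Same-numbered libraries of an experiment did not deviate together (r from -0.093 to 0.132), so the numbers were not taken as pairs. With the replicate block 0 genes were called with ETS1 siRNA, also with the GC and length correction, and 54 for the difference. With ZNF783 siRNA the block left ZNF783 called (-0.31, adjusted p = 6.85e-05, edgeR).

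The changes of sign lay within 0.22 of 0. With ETS1 siRNA, ZNF777 became 0.01 with library size alone, 0.22 with the GC and length correction (0.20 with the block too) and, when 1 library was left out, ran from -0.12 to 0.04, above 0 without ETS1 siRNA replicate 2 (0.02) or 3 (0.04) or control replicate 1 (0.01). ZNF282 became 0.13 with that correction, 0.12 with the block too and 0.06 without ETS1 siRNA replicate 1 too. ZNF786 became 0.04 with the correction, with or without the block, and 0.07 without that replicate too. With limma-voom ZNF786 became 0.01, with and without that replicate. With ZNF783 siRNA the correction, without and with the block, turned ZNF777 (0.02 and 0.01), ZNF282 (0.12 and 0.13) and ZNF212 (0.02 and 0.01), and leaving out ZNF783 siRNA replicate 2 turned ZNF862 (-0.02). The difference for ZNF783 became 0.10 with limma-voom, 0.08 without ETS1 siRNA replicate 1 (-0.15 to 0.08 over libraries left out), and 0.09 without it and with the correction or limma-voom. That for ZNF746 became 0.07, 0.05, 0.07 and 0.05 in the same 4 settings (-0.11 to 0.05 over libraries left out). That for ZNF282 became 0.01 with the correction, with or without the block, and that for ZNF777 -0.02 with the correction and without the replicate. The cause was not tested.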
